A study of Mus musculus with 6 samples.

Results

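Annexins are calcium-dependent proteins that bind acidic phospholipids on the inner face of cell membranes through a conserved core, and their short N-terminal tails, which differ between members, bind other proteins such as the small S100 proteins. In skeletal muscle, several annexins gather at a torn plasma membrane and take part in its resealing together with dysferlin. Others act outside the cell or in immune and connective tissue cells: *Anxa1* encodes an anti-inflammatory protein induced by glucocorticoids that signals through formyl peptide receptors, and *Anxa2* encodes a cell-surface receptor for plasminogen and its activator. The expression of 9 annexin genes was followed here in the soleus of *Mustn1*-deficient mice. They are *Anxa1* to *Anxa8* and *Anxa11*, chosen by gene symbol among the 16180 genes of the deposited normalized table and joined by Ensembl identifier to the 51912 genes of the raw count table. The count table holds 12 annexin genes in all. The 3 that were not chosen had few or no reads, with 7 to 19 reads per mouse for *Anxa9*, no read in any mouse for *Anxa10* and 1 read in 1 WT mouse for *Anxa13*.

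*Mustn1* encodes a microprotein of the musculoskeletal system. The HET mice carry 1 Mustn1 KO-first allele, in which a lacZ trapping element with a neomycin resistance gene captures splicing from exon 1 throughout the body, and 1 intact allele. The WT mice are littermates without the allele. All mice are of the C57BL6/N strain and 8 weeks old, and poly-A RNA of the soleus, a slow postural calf muscle, was sequenced in 1 library per mouse for 3 mice of each genotype. The labels call all 6 mice male, but every library held between 3858 and 9154 reads of *Xist*, the X-inactivation transcript of female cells, and 0 to 12 reads over the Y-linked genes *Ddx3y*, *Kdm5d*, *Uty* and *Eif2s3y* together. The libraries held 26790075 to 50368796 reads on genes. *Mustn1* fell in the HET mice, from 27.5 ± 3.89 to 14.2 ± 2.33 CPM (normalized counts scaled to a common library total, mean ± SD, n = 3), a log2 fold change of -0.96 ± 0.15 (SE) with an adjusted p of 0.0452 in edgeR's quasi-likelihood test. With 1 mouse left out, this log2 fold change lay between -1.09 and -0.88, and the call was lost without HET 1 (adjusted p = 0.137), HET 3 (0.280), WT 1 (0.0659) or WT 2 (0.125). With all mice it was also lost with limma-voom (adjusted p = 0.0673) and with edgeR's non-robust dispersion (0.0606).

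The annexin genes spanned a wide range of expression in soleus. Levels were compared between genes as RPKM, and each is the mean of the 6 mice with the lowest and highest mouse. RPKM is the CPM divided by the count table's gene length in kilobases. This length covers the annotated exons and not the span between coordinates (2930 bases for *Anxa6*), and the order of levels depends on it. *Anxa6*, a large annexin with a duplicated core that is abundant in striated muscle, had the highest level at 98.5 RPKM (93.7 to 106). *Anxa5*, whose protein is best known for binding phosphatidylserine on dying cells, followed at 38.5 RPKM (30.0 to 49.4). The ranges of these genes did not overlap with each other or with that of the next gene, *Anxa7*, at 18.9 RPKM (16.3 to 20.4).

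From *Anxa7* down to *Anxa3*, the ranges of neighbours in the order overlapped over the 6 mice. Within every mouse *Anxa2* was above *Anxa11*, while the other neighbouring pairs changed order between mice. *Anxa2* was at 15.01 RPKM (11.9 to 20.5), *Anxa11* at 9.85 RPKM (8.05 to 12.1) and *Anxa1* at 8.55 RPKM (5.40 to 13.8). *Anxa4* was at 6.84 RPKM (6.23 to 7.69) and *Anxa3* at 6.13 RPKM (5.23 to 7.70). *Anxa8* stood apart at the bottom, at 0.444 RPKM (0.0890 to 0.824), with 5 to 68 reads per mouse. The plot of levels per gene length shows both genotypes on this scale.

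**Figure D1:**
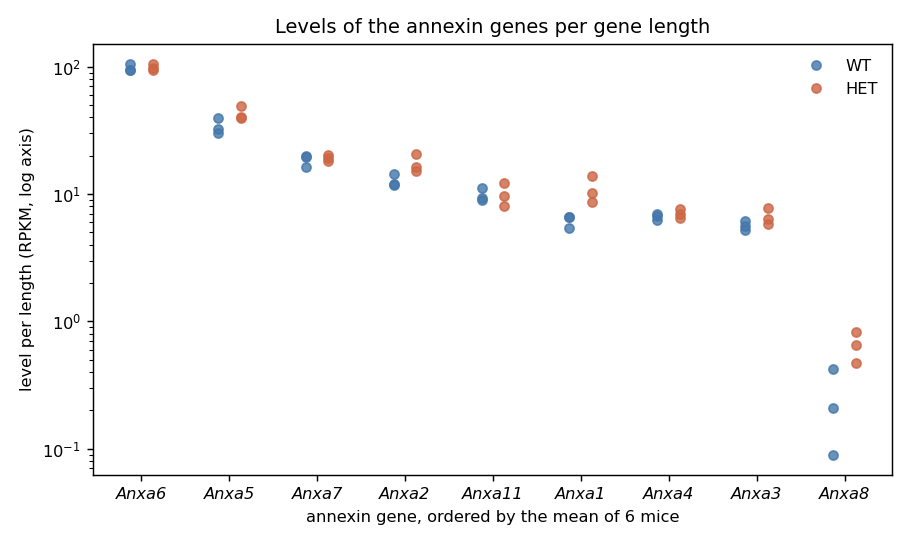
Levels of the 9 annexin genes in RPKM (log axis), 1 point per mouse, with WT and HET mice in separate columns and genes ordered by the mean of 6 mice. *Anxa6* (93.7 to 106) and *Anxa5* (30.0 to 49.4) lie above the other genes, *Anxa8* (0.0890 to 0.824) lies below them, and the genes between overlap their neighbours.

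HET mice were then compared with WT mice to ask whether annexin expression differed with *Mustn1* deficiency. No annexin passed the adjusted threshold of 0.05 in edgeR's quasi-likelihood test, in either direction. Across all 14696 genes tested, 21 genes (0.143%) were called higher and 1 gene (0.00680%) lower. At an unadjusted p under 0.05, 4 of the 9 annexins (*Anxa1*, *Anxa2*, *Anxa5* and *Anxa8*) were higher in HET mice and none was lower. Over all 14696 genes, 5.76% were higher and 294 genes were lower. In 3 annexins (*Anxa1*, *Anxa2* and *Anxa8*) the lowest HET mouse lay above the highest WT mouse in CPM, beside 7.55% of all genes. The order was the opposite in 0 annexins, beside 884 of the 14696 genes, so so few annexins could not show a lack of it. All 9 log2 fold changes were above 0, against 45.6% over all genes, with a median of 0.24 for the annexins and -0.02 for all genes. Of the 9, 7 were above 0 without HET 2 or without WT 2, and 8 without WT 1. *Anxa8* is part of these counts although it passed the filter on low counts only with the HET mice.

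The call for single annexins differed between tests. DESeq2's Wald test called *Anxa1* higher (adjusted p = 0.000731), among 200 genes (1.12% of 17801) that it called higher. With low-count genes kept, edgeR called *Anxa1* (adjusted p = 3.36e-08), *Anxa2* (adjusted p = 0.00272) and *Anxa8* (adjusted p = 0.0329), among 386 genes higher (1.33% of 29081). The *Anxa1* log2 fold change in that fit was 0.82 ± 0.13 (SE), beside 0.81 ± 0.17 with the filter. Its far smaller adjusted p thus came from how that fit set the variance, not from a larger difference. Limma-voom called no annexin. The RNA came from whole muscle, so a difference in the number of cells of a type and a difference in RNA per cell cannot be told apart in any of these comparisons.

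**Figure D2:**
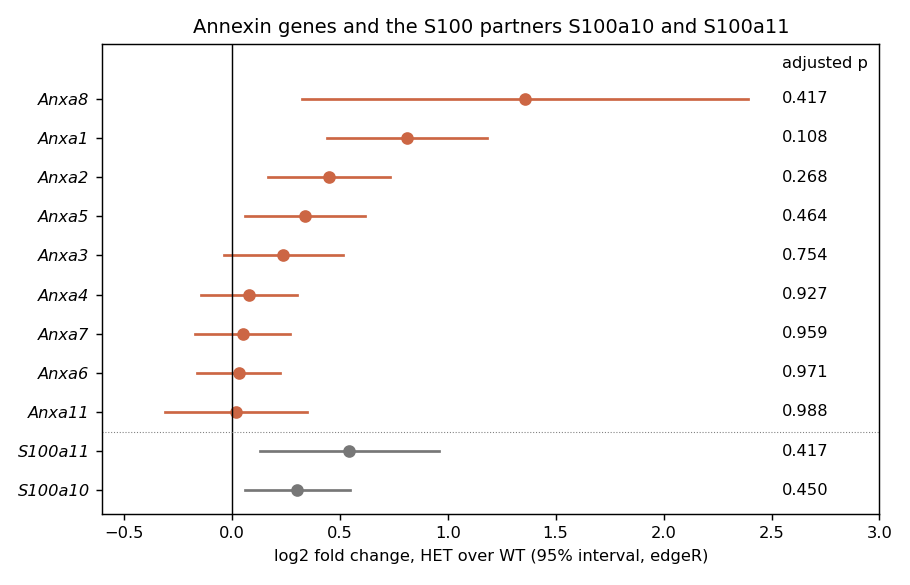
Log2 fold change of HET over WT for the 9 annexin genes and for *S100a10* and *S100a11*, which encode S100 partners of annexins 2 and 1, with 95% intervals from edgeR's quasi-likelihood test and adjusted p at the right. The intervals of *Anxa8*, *Anxa1*, *Anxa2*, *Anxa5*, *S100a11* and *S100a10* lie above 0, while those of *Anxa3*, *Anxa4*, *Anxa7*, *Anxa6* and *Anxa11* include 0, and no adjusted p is under 0.05.

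*Anxa1* (ENSMUSG00000024659, GRCm38 chr19:20373428-20390944, minus strand) had 26.7, 22.7 and 35.9 CPM in the 3 HET mice and 14.1, 17.3 and 17.2 CPM in the 3 WT mice. HET 3 was the highest, and the lowest HET mouse was above the highest WT mouse. The means were 28.4 ± 6.80 and 16.2 ± 1.84 CPM (SD, n = 3), a 1.76-fold higher level with a 95% interval of 1.36 to 2.27. The log2 fold change of 0.81 ± 0.17 (SE) had an adjusted p of 0.108 in edgeR's test, and 3.38% of the genes tested had a larger one. Between 421 and 1576 reads stood behind each value. Without HET 3 the log2 fold change was 0.61, and without HET 2 it was 0.96.

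The protein of *Anxa1* binds the S100 protein encoded by *S100a11*. *S100a11* had 8.68, 9.69 and 10.8 CPM in HET mice and 4.78, 7.31 and 7.84 CPM in WT mice. These groups did not overlap either, with a log2 fold change of 0.54 ± 0.19 (SE) and an edgeR adjusted p of 0.417. Without WT 1 this log2 fold change was 0.36, and without WT 3 it was 0.69. The formyl peptide receptor genes *Fpr1* and *Fpr2*, through which annexin A1 signals, were too low to test, with at most 3 reads and 6 reads in a mouse.

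*Anxa2* (ENSMUSG00000032231, chr9:69453620-69491795, plus strand) had 56.5, 60.8 and 76.6 CPM in HET mice and 44.5, 53.4 and 44.2 CPM in WT mice. The groups did not overlap, but HET 1 and WT 2 lay close together, and HET 3 was again the highest mouse. The means were 64.7 ± 10.6 and 47.4 ± 5.20 CPM, a 1.37-fold higher level (95% interval 1.12 to 1.66). The log2 fold change of 0.45 ± 0.13 (SE) had an adjusted p of 0.268 in edgeR's test. Without HET 3 it was 0.31, with an adjusted p of 0.832.

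At the cell surface, annexin A2 forms a tetramer with the protein encoded by *S100a10*. *S100a10* had 20.3, 19.4 and 22.6 CPM in HET mice and 15.4, 17.3 and 17.8 CPM in WT mice, with no overlap between genotypes. Its log2 fold change was 0.30 ± 0.11 (SE), with a 95% interval of 0.06 to 0.55 and an edgeR adjusted p of 0.450.

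*Anxa5* (ENSMUSG00000027712, chr3:36448923-36475894, minus strand) had 70.1, 71.2 and 87.8 CPM in HET mice and 53.3, 70.2 and 57.6 CPM in WT mice. WT 2 reached the level of HET 1, and HET 3 was the highest mouse once more. The log2 fold change was 0.34 ± 0.13 (SE), with a 95% interval of 0.06 to 0.62 and an adjusted p of 0.464 in edgeR's test. Without HET 3 it was 0.23.

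*Anxa6* (ENSMUSG00000018340, chr11:54979108-55033445, minus strand), the most highly expressed annexin, had 288, 310 and 278 CPM in HET mice and 305, 275 and 277 CPM in WT mice. The groups overlapped. With 7744 to 13681 reads per mouse, the fold of HET over WT was 1.02 with a 95% interval of 0.895 to 1.17, and the edgeR adjusted p was 0.971.

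**Figure D3:**
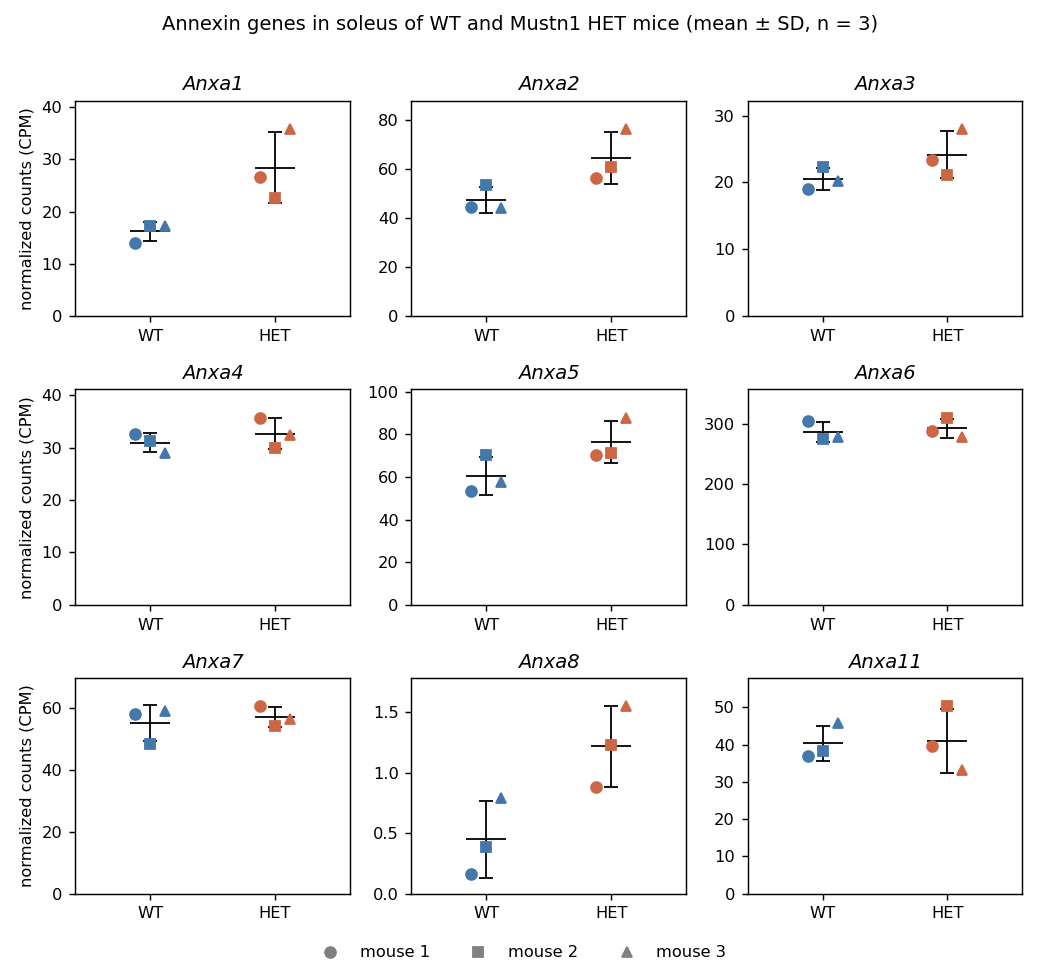
Normalized counts (CPM) of each annexin gene in the 3 WT and 3 HET mice, with 1 marker shape per mouse number and the mean ± SD in black; each panel starts at 0 and has its own scale. The genotypes do not overlap for *Anxa1*, *Anxa2* and *Anxa8*, HET 3 is the highest mouse in 5 panels, and *Anxa6* lies between 275 and 310 CPM in all mice.

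The other 4 annexins of intermediate level had intervals that included 0. *Anxa3* (ENSMUSG00000029484, chr5:96793339-96845966, plus strand) had means of 24.2 ± 3.55 CPM in HET and 20.5 ± 1.60 CPM in WT mice, with HET 3 the highest at 28.1 CPM. Its log2 fold change was 0.24 with a 95% interval of -0.04 to 0.51, and without HET 3 it was 0.12. *Anxa4* (ENSMUSG00000029994, chr6:86736840-86793584, minus strand) had means of 32.6 ± 2.93 and 30.9 ± 1.82 CPM, and an interval of -0.14 to 0.30. *Anxa7* encodes synexin, an annexin that binds sorcin and has been linked to calcium handling in muscle. *Anxa7* (ENSMUSG00000021814, chr14:20455261-20480133, minus strand) had means of 57.1 ± 3.15 and 55.1 ± 5.86 CPM, and an interval of -0.17 to 0.27. *Anxa11* encodes an annexin with a long N-terminal tail that binds S100A6 and the protein of *Pdcd6*. *Anxa11* (ENSMUSG00000021866, chr14:25842156-25886804, plus strand) had both its highest and its lowest mouse among the HET mice, at 50.2 and 33.3 CPM, and an interval of -0.31 to 0.35. The edgeR adjusted p of these 4 genes lay between 0.754 and 0.988, and the direction of *Anxa7*, *Anxa11* and *Anxa6* turned when single mice were left out.

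*Anxa8* (ENSMUSG00000021950, chr14:34085981-34100571, plus strand) had the largest log2 fold change of the family and the fewest reads. It had 33, 33 and 68 reads in HET mice and 5, 11 and 39 reads in WT mice, or 0.881, 1.23 and 1.55 CPM against 0.167, 0.390 and 0.790 CPM. The groups did not overlap, although WT 3 came close to HET 1. The fold of HET over WT was 2.56 with a wide 95% interval of 1.25 to 5.24, and the edgeR adjusted p was 0.417. Without WT 3 the log2 fold change was 2.13, and without WT 1 it was 0.995, beside 1.36 with all mice. It passed the filter on low counts with 5 libraries at or over 0.297 CPM, 2 of them WT. The filter asks for as many libraries as a genotype has mice, so *Anxa8* passed only with the HET mice, where it was high. Its place in the counts of annexins above is therefore no support for a difference. *Anxa8*, *Anxa11* and *Anxa7* lie on the chromosome of *Mustn1*, at 3.21, 5.02 and 10.4 Mb from it.

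HET 3 was the highest mouse for 5 of the 9 annexins, and no annexin was highest in a WT mouse. The share of all genes with the same highest mouse was not computed, so these counts are a description alone. The plot of fits with 1 mouse left out shows how much each mouse carried.

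**Figure D4:**
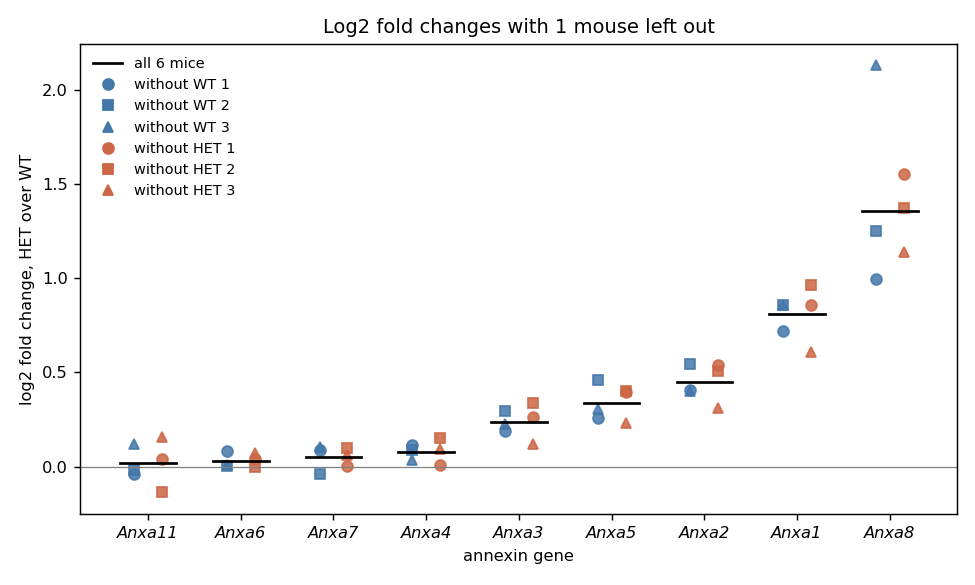
Log2 fold change of HET over WT from edgeR for each annexin with all 6 mice (black bar) and with each mouse left out (points; color gives the genotype of the mouse left out and shape its number). *Anxa1* stays between 0.61 and 0.96 and *Anxa2* between 0.31 and 0.54, both lowest without HET 3, *Anxa8* moves between 0.995 and 2.13, and points for *Anxa6*, *Anxa7* and *Anxa11* fall on both sides of 0.

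The make-up of the annexin pool is given as a description, with no test. The summed level of the 9 genes was 208, 214 and 221 RPKM in HET mice and 192, 193 and 189 RPKM in WT mice, with no overlap. *Anxa6* made up 46.5 ± 3.33% of this sum in HET and 51.0 ± 2.85% in WT mice (SD, n = 3), with overlapping ranges. *Anxa1* made up 5.07 ± 1.09% in HET and 3.25 ± 0.383% in WT mice, without overlap (4.05 to 6.23% and 2.81 to 3.50%). Within each library, the ratio of *Anxa1* to *Anxa6* in RPKM was 0.104, 0.0821 and 0.145 in HET mice and 0.0519, 0.0708 and 0.0698 in WT mice. The same ratio for *Anxa2* was 0.154, 0.154 and 0.217 in HET mice and 0.115, 0.153 and 0.125 in WT mice, so that WT 2 came within a small margin of the HET mice. These ratios do not depend on the scaling between libraries.

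Genes with known links to annexins were followed as lists. Of 12 genes whose proteins bind annexins or act with them, 9 could be tested. A log2 fold change above 0 was found for 8 of these, beside 45.6% of all genes. None passed the adjusted threshold in edgeR's test or limma-voom. At an unadjusted p under 0.05 in edgeR's test, 6 were higher, beside 5.76% of all genes. The median log2 fold change was 0.49 beside -0.02 for all genes. The genes of this list ran from *Ahnak*, the scaffold protein of the annexin A2 complex, at -0.02 (adjusted p = 0.978) to *Pla2g4a*, the cytosolic phospholipase A2, at 0.91 (adjusted p = 0.524). *S100a6* (chosen after its values were seen), a calcium-binding partner of annexin A11, had 32.0 ± 1.08 CPM in HET and 22.8 ± 3.48 CPM in WT mice (SD, n = 3). Its log2 fold change was 0.49 ± 0.12 (SE), with an adjusted p of 0.174 in edgeR's test and 0.0297 in DESeq2's, where it was the sole gene of the list that was called. With low-count genes kept, 2 genes of the list were called by edgeR, *S100a6* (adjusted p = 0.00419) and *Pla2g4a* (adjusted p = 0.0424). *Plg*, which encodes plasminogen, had 0 to 2 reads per mouse and was not tested.

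All 17 genes for plasma membrane repair and caveolae were tested, and 10 had a log2 fold change above 0, beside 45.6% of all genes. None passed the adjusted threshold in edgeR's test or limma-voom. At an unadjusted p under 0.05 in edgeR's test, 1 was higher, which is near the 5.76% of all genes, and the median was 0.03. Without HET 2, 5 were above 0 and the median was -0.02. The list ran from *Cav1*, a coat protein of caveolae, at -0.16 (adjusted p = 0.824) to *Myof*, which encodes the dysferlin relative myoferlin, at 0.67 (adjusted p = 0.131). *Myof* had 12.6 ± 1.03 CPM in HET and 7.94 ± 1.28 CPM in WT mice (SD, n = 3), without overlap, and was called by DESeq2 (adjusted p = 0.0118) and by edgeR without a filter (adjusted p = 0.00187). *Dysf*, which encodes dysferlin itself and was chosen after its values were seen, had a log2 fold change of 0.03 with a 95% interval of -0.16 to 0.22.

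*Anxa1* is a known glucocorticoid target, so 11 other glucocorticoid-induced genes were set beside it. Of these, 2 had a log2 fold change above 0 and 9 below, beside 45.6% of all genes above 0. This rested on WT 3: without it 7 were above 0 and 4 below, and the median was 0.09. None passed the adjusted threshold by edgeR, DESeq2 or limma-voom, none had an unadjusted p under 0.05 in edgeR's test, and the median with all mice was -0.16. WT 3 had 86.6 CPM of *Per1*, a circadian clock repressor, beside 24.5 and 21.5 CPM in the other WT mice. The log2 fold changes ran from *Per1* at -0.51 (adjusted p = 0.936) to *Pdk4*, a kinase that restrains pyruvate oxidation, at 0.31 (adjusted p = 0.970). *Pdk4* ranged from 682 to 3661 CPM among the HET mice, and its log2 fold change had a 95% interval of -1.78 to 2.40.

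Marker lists of cell types were set beside the annexins. Over all genes tested, 45.6% had a log2 fold change above 0 and 0.143% passed the adjusted threshold as higher in edgeR's test. All 15 macrophage markers had a log2 fold change above 0 (median 1.29), 6 of them rose past the adjusted threshold in edgeR's test (*C1qa*, *Lyz2*, *C1qb*, *Laptm5*, *Adgre1* and *Csf1r*), and their summed level was 99.8 to 137 CPM in HET and 54.4 to 61.2 CPM in WT mice. Without HET 1, HET 3, WT 1 or WT 2, 0 of these markers passed. With all mice, DESeq2 called 9 of them, limma-voom 2 and edgeR with non-robust dispersion 3. All 13 markers of fibroblasts and fibro-adipogenic progenitors had a log2 fold change above 0 (median 0.77), *Pi16* rose past the threshold, and their sum was 2285 to 3022 CPM in HET and 1099 to 1758 CPM in WT mice. The *Pi16* call also was lost without each of those 4 mice, and with limma-voom or non-robust dispersion, both of which called 0 of these markers, while DESeq2 called 6. All 9 tenocyte markers had a log2 fold change above 0 (median 1.14), with 0 past the threshold in edgeR's test and 1 called by DESeq2. At an unadjusted p under 0.05 in edgeR's test, 7 of them were higher, beside 5.76% of all genes. Their sum was 386 to 708 CPM in HET and 124 to 311 CPM in WT mice.

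The other marker lists had medians near that of all genes. The median log2 fold change was -0.06 for 10 endothelial markers, 0.06 for 11 smooth muscle and pericyte markers and -0.08 for 8 slow fiber markers, with 0 genes past the threshold in each by edgeR, DESeq2 or limma-voom. At an unadjusted p under 0.05 in edgeR's test, 1 gene of these lists was lower, the pericyte marker *Rgs5*, and 0 were higher. Over all 14696 genes tested, 294 were lower and 5.76% higher at this threshold. Summed levels overlapped between genotypes for endothelial markers (703 to 856 CPM in HET, 746 to 915 CPM in WT) and for slow fiber markers (39568 to 42408 CPM in HET, 40479 to 45124 CPM in WT). The smooth muscle and pericyte sum was 1147 to 1266 CPM in HET and 1263 to 1442 CPM in WT mice. Most of the gap lay in *Rgs5*, with means of 570 CPM in HET and 715 CPM in WT mice, beside 1187 and 1335 CPM for the sum. Of the 11 markers, 6 had a log2 fold change above 0. Of 7 neutrophil markers 1 could be tested, *Csf3r* at 0.05, the defining marker *Ly6g* had no read in any mouse, and the sum was 3.99 to 6.68 CPM in HET and 4.35 to 4.60 CPM in WT mice. Most untested ones were highest in HET 3, at 56 reads of *S100a9* (1 to 7 in the other mice) and 16 of *S100a8* (0 to 6). In the same mouse *Retnlg* had 15 reads (0 elsewhere) and *Mmp8* had 13 (0 to 4). *Cxcr2* had at most 3 reads in any mouse.

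Relative to the WT mean, *Anxa1* stood at 1.65, 1.40 and 2.22 in the 3 HET mice, the macrophage sum at 2.03, 1.72 and 2.37, the fibroblast sum at 1.56, 1.82 and 2.07, and the tenocyte sum at 1.66, 3.04 and 2.69. *Anxa6* stood at 1.01, 1.09 and 0.972 in the same mice. HET 3 was the highest of the HET mice for *Anxa1* and for the macrophage and fibroblast sums, and HET 2 for the tenocyte sum. The part of these cell types in the annexin values was not tested.

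**Figure D5:**
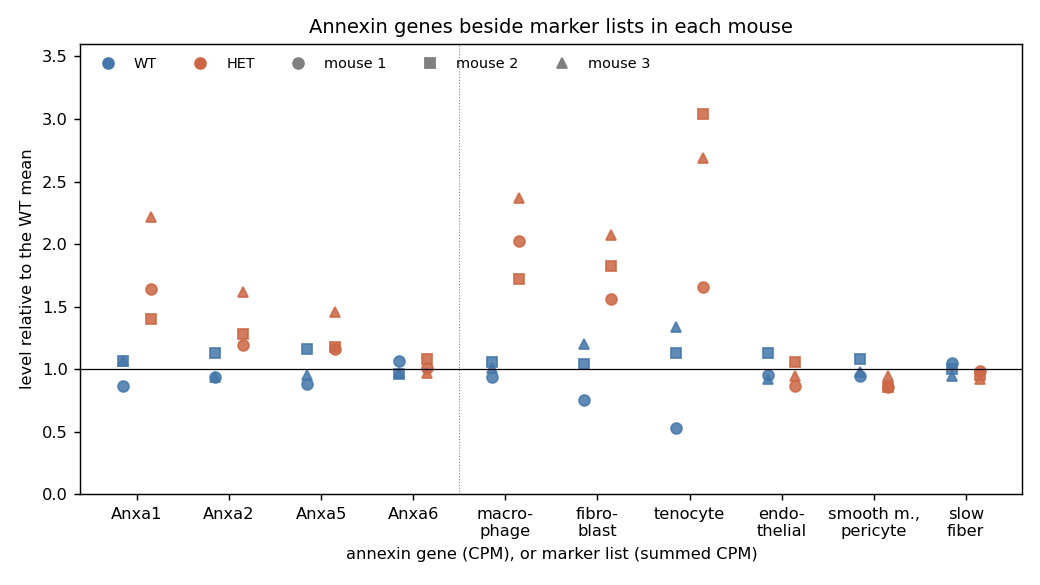
Levels of *Anxa1*, *Anxa2*, *Anxa5* and *Anxa6* (CPM) and of 6 marker lists (summed CPM) in each mouse, divided by the mean of the WT mice (black line at 1), with color for genotype and shape for mouse number. *Anxa1* (1.40 to 2.22) and the macrophage, fibroblast and tenocyte sums lie above all WT mice in the HET mice, while *Anxa6*, the endothelial sum and the slow fiber sum overlap between genotypes.

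For the 3 annexins that varied most between mice, the genes with the most similar profile over the 6 mice were sought among all genes tested. Likeness is the root mean square difference of log2 CPM after centering each gene, so that 0 is an identical profile. For *Anxa1*, whose log2 CPM had an SD of 0.493 over the mice, the closest genes were *Il33*, an alarmin cytokine (0.0368), *C5ar1*, the receptor of complement C5a (0.0770), and *Fstl1*, a secreted glycoprotein (0.0820). *Il33* had 4.35, 3.69 and 6.22 CPM in HET and 2.34, 2.80 and 2.96 CPM in WT mice. *C5ar1* was low, at 0.334 to 0.980 CPM. All these genes were picked on the same 6 values, so their likeness in direction and between mice follows from the choice. For *Anxa2* (SD 0.298) the closest genes were *Adamts5*, an aggrecan-cleaving protease (0.0473), *Clic1* (0.0548) and *Lgals3bp* (0.0559). For *Anxa8* (SD 1.06) they were *Emb*, a cell adhesion protein (0.166), and the matrix genes *Col14a1* (0.188) and *Fbln1* (0.200). These differences are larger than for *Anxa1* and *Anxa2*, but the measure is not scaled to a gene's spread, which was widest for *Anxa8*. None of these 9 genes passed the adjusted threshold in edgeR's test.

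The promoters of the annexins were searched for short motifs, and those of the 2 best-covered annexins without overlap between genotypes are shown. RefSeq promoter windows (GRCm38.p6) were given for 7 of the 9 genes, all but *Anxa3* and *Anxa6*. The 250 bases before the RefSeq start were searched on both strands, and the capitals mark the TATA box letters (TATAAA) or an AP-1 site (TGANTCA), the site of Fos and Jun proteins, which reads the same on both strands. The stretches are written 5′ to 3′ on the strand of the gene.
*Anxa1* TATAAA, chr19:20390686-20390715, minus strand: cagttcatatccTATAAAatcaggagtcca
*Anxa2* TATAAA, chr9:69453653-69453682, plus strand: aggatggggcgggTATAAAagccccaccca
*Anxa2* TGANTCA, chr9:69453576-69453605, plus strand: ttccaagttggaTGAGTCAcccagcagggt

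The TATAAA letters began 32 bases before the RefSeq start of *Anxa1* and 17 bases before that of *Anxa2*, and no other annexin window held them. Among all 32851 promoters, 12.4% held TATAAA. The TGANTCA motif, 95 bases before the *Anxa2* start, was found in 6.75% of all promoters and in no other annexin. The count table begins both genes upstream of the RefSeq start, so both TATAAA stretches lie inside the annotated genes. GGGCGG, the letters of an Sp1-type GC box, was found for *Anxa2*, *Anxa7* and *Anxa11* and in 32.7% of all promoters. No annexin window held a CArG box, the site of serum response factor, found in 1.47% of promoters, or a full glucocorticoid response element (AGAACA and TGTTCT parted by any 3 bases), found in 0.00913%. The windows of *Anxa4*, *Anxa5* and *Anxa8* held none of the motifs searched.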

How the data were processed

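Soleus RNA from 3 HET and 3 WT mice was sequenced as single-end reads from stranded poly-A libraries. The authors aligned the reads with STAR 2.7.3a to GRCm38.p6 and deposited raw counts per gene made with featureCounts 2.0.3 in reverse-stranded mode. They also deposited a normalized signal, in which each library's counts were divided by its DESeq2 size factor (0.773 to 1.42), used here to choose the members. The authors' deposited comparison, with log2 fold changes and p-values, was not used. Groups and replicate numbers came from the sample labels, which name separate mice.

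The raw counts were analysed in R 4.3.3 with edgeR 4.0.16 (filterByExpr with a minimum count of 10, TMM factors, robust quasi-likelihood test of genotype over all 6 mice, no covariate, two-sided, Benjamini-Hochberg adjustment over all 14696 genes tested, threshold 0.05). The biological coefficient of variation was 0.143. CPM and RPKM use the TMM factors. Gene symbols came from GENCODE for 51633 genes, and reads of overlapping genes on the same strand numbered at most 2 for any annexin. The fit was tested on simulated data.

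Replicates of a genotype differed by more than sampling noise (chi-square per gene 16.1 to 46.8). Alternatives were DESeq2 1.42.0, limma-voom (limma 3.58.1), other scaling factors, filters and dispersions, a replicate block, removal of a gene length trend, and leaving out each mouse.

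The annexins and the gene lists were chosen with earlier results of these data known. Genes named singly were the annexins, *Mustn1*, *S100a10*, *S100a11*, the lowest and highest log2 fold change and any calls of each list, and the 3 genes most alike in profile to each of the 3 most variable annexins. *S100a6*, *Dysf* and *Rgs5*, the untested *Fpr1*, *Fpr2* and *Plg*, and *Ly6g* and the other cell type markers were named outside this rule, after their values were seen.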

Additional observations from a re-analysis of the deposited data

How the results depend on the processing

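The count of annexins past the threshold was 0 in both directions under every alternative except edgeR without a filter (3 higher) and DESeq2 (1 higher). The median log2 fold change of the annexins lay between 0.15 and 0.34 with 1 mouse left out and stayed above 0 under all 17 alternatives. *Anxa1* passed in 2 of 17 alternatives (adjusted p 3.36e-08 to 0.347), *Anxa2* in 1 of 17 (0.00272 to 0.832) and *Anxa8* in 1 of 16, since a minimum of 10 reads in every library removed it. The direction turned for *Anxa6* without HET 2 (-0.00018; -0.00018 to 0.080 over the mice left out), for *Anxa7* without WT 2 (-0.037; -0.037 to 0.10), and for *Anxa11* with limma-voom (-0.013), without HET 2 (-0.14), without WT 1 (-0.040) and without WT 2 (-0.017), with a range of -0.14 to 0.15 over the mice left out. The cause was not tested. Among all genes, the calls higher and lower were 386 and 18 without a filter, 200 and 10 with DESeq2, 3 and 0 with limma-voom, 6 and 0 with non-robust dispersion, and 0 to 77 and 0 to 6 with 1 mouse left out, beside 21 and 1. Annexin partners past the threshold were 2 without a filter and 1 with DESeq2, and membrane repair genes 1 under each. No scaling moved the median of all genes by more than 0.0763.

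The replicate numbers of the labels were tried as a block. Mice of the same number did not deviate together in every pair (correlations 0.203, -0.00578 and -0.0349), not every mouse correlated best with its own number, and the numbers were not taken as pairs. With the replicate block, 114 genes were called higher and 2 lower (140 and 2 with the length trend removed as well), the annexins past the threshold stayed at 0, and *Anxa1* had an edgeR adjusted p of 0.0533.

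Precision was limited by 3 mice per genotype and, for *Anxa8*, by 5 to 68 reads per mouse. For *Anxa6*, the 95% interval of the fold ran from 0.895 to 1.17, so true folds within it were not excluded.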
